A study of Mus musculus with 27 samples.

Results

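The genes described here encode 6 matrix metalloproteases and 3 of their tissue inhibitors: Mmp2, Mmp3, Mmp9, Mmp10, Mmp13, Mmp14, Timp1, Timp2 and Timp3. They were chosen by symbol, as the probe sets that carry 1 of these 9 symbols and no other, which gave 21 of the 34945 probe sets with a single symbol and 9 of 18193 genes. Matrix metalloproteases are zinc enzymes that cut collagens, proteoglycans and other proteins outside the cell. Most are made as inactive proenzymes, several are switched on by another protease at the cell surface, and the tissue inhibitors bind the active enzymes and block them. Fibroblasts make many of these enzymes, and transcription of several of them responds to growth factors, cytokines and the AP-1 transcription factors.

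RNA was measured on 27 Affymetrix arrays of mouse embryonic fibroblasts, 3 for each of 9 groups. The cells came from a wild-type line (wt PKBalpha), a line without PKBalpha (ko PKBalpha) and a line that the labels call ko/rescued PKBalpha or reconstituted, referred to as the line labelled rescued. Akt1 codes for PKBalpha, a kinase of growth and survival signalling. Of each line there were untreated cells and cells taken 4 h after 10 Gy of gamma radiation or 24 h after it, and the series compares each irradiated group with untreated cells of the same genotype. All groups were female cells at passage 45, grown with 10% serum, and those irradiated had been in culture for 24 h. The labels name 1 line per genotype and call the 3 arrays of a group biological replicates, so the tests measure the spread within a line. Differences between lines cannot be told apart from differences between genotypes. How the PKBalpha gene was deleted or put back, and when untreated cells were harvested, is not given in the sources used here. For 6 irradiated wild-type samples the descriptions say untreated, and the titles were followed.

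Levels below are intensities of a gene's brightest probe set (1416136_at for Mmp2, 1418945_at for Mmp3, 1416298_at for Mmp9, 1420450_at for Mmp10, 1417256_at for Mmp13, 1448383_at for Mmp14, 1460227_at for Timp1, 1460287_at for Timp2 and 1419089_at for Timp3). A group's level is the geometric mean of its 3 arrays, and differences are on the log2 scale ± the standard error of the model. A gene is called changed at a limma adjusted p below 0.05. The background level of 69.9 is the highest value that 13 probe sets of 6 Y-linked genes reached on these arrays of female cells, and without the brightest of those probe sets it would be 48.3. Where a group lies below 69.9, a fold is given as a lower bound against that level. Akt1 read 2980 to 4550 on the 9 wild-type arrays and at most 65.5, below background, on every array of the knockout and of the line labelled rescued. Untreated, the line labelled rescued differed from wild type by -7.40 ± 0.87 (adjusted p = 3e-06). Whether the Akt1 probe set covers the sequence put back is not known here. Cdkn1a, a p53 target that radiation induces, rose 4 h after irradiation in the wild-type line by 1.85 ± 0.39 (adjusted p = 0.015) and did not pass in the knockout (-0.01 ± 0.39) or the line labelled rescued (0.35 ± 0.39). At 24 h it differed by 1.65, 0.69 and 1.18 in these lines, each ± 0.39, without passing. Arrays of the line labelled rescued did not overlap there. Untreated, Cdkn1a was 2.52-fold lower than wild type in the knockout (adjusted p = 0.02). In the line labelled rescued it was 5.13-fold lower (adjusted p = 0.00015). Gapdh and beta-actin controls probe the 3' and the 5' part of their transcripts. The log2 ratio of actin set 5 arrays apart, at 0.39 to 0.59 against 0.13 to 0.29 on the other 22. The same 5 had the highest Gapdh ratios, from -0.19 to 0.16 against -0.47 to -0.30. Results are also given without these 5 arrays. All 10 fibroblast markers were above background in every group.

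The largest differences were between untreated lines. Mmp3, Mmp10 and Mmp13, which lie in 1 cluster of Mmp genes on chromosome 9, were lower in both other lines than in wild-type cells. Mmp3 and Mmp13 were lower still in the line labelled rescued than in the knockout. Mmp3 is stromelysin-1, which cuts proteoglycans, fibronectin and basement membrane proteins and activates other proenzymes. Its intensity was 6710, 10900 and 8380 on the 3 untreated wild-type arrays, 1480, 1400 and 1370 on those of the knockout, and 164, 114 and 174 on those of the line labelled rescued. No array of a line overlapped with another line. The level was 5.99-fold lower in the knockout than in wild-type cells (-2.58 ± 0.31, adjusted p = 3.9e-06) and 57.3-fold lower in the line labelled rescued (-5.84 ± 0.31, adjusted p = 6.3e-11). Between those 2 lines it differed 9.56-fold, lower in the line labelled rescued (-3.26 ± 0.31, adjusted p = 6.5e-06). In bulk RNA, fewer cells that make a transcript and less of it per cell cannot be told apart.

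Mmp13 is the collagenase of rodent connective tissue, which cuts fibrillar collagen. Untreated, the wild-type arrays read 434, 1080 and 531, the knockout arrays 89.9, 63.7 and 170, and those of the line labelled rescued 16.4, 21.7 and 4.71. The 3 lines again did not overlap, and all 9 arrays of the line labelled rescued, irradiated ones included, were below background. The knockout was 6.35-fold lower than wild type (-2.67 ± 0.52, adjusted p = 0.00092), and the line labelled rescued at least 9-fold lower (-5.72 ± 0.52, adjusted p = 1e-07). That line was also below the knockout, by at least 1.42-fold (-3.06 ± 0.52, adjusted p = 0.0021), a call lost on the compared arrays alone (adjusted p = 0.26).

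Mmp10, stromelysin-2, is a close relative of Mmp3 with similar substrates. Untreated wild-type cells gave 351, 886 and 483, the knockout 24.1, 36.7 and 43.1, and the line labelled rescued 4.97, 5.07 and 17.6. Both other lines lay below background, and each was at least 7.61-fold lower than wild type (knockout, -3.98 ± 0.81, adjusted p = 0.0013; line labelled rescued, -6.12 ± 0.81, adjusted p = 1.3e-05). No fold is given between the 2 dim lines.

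**Figure D1:**
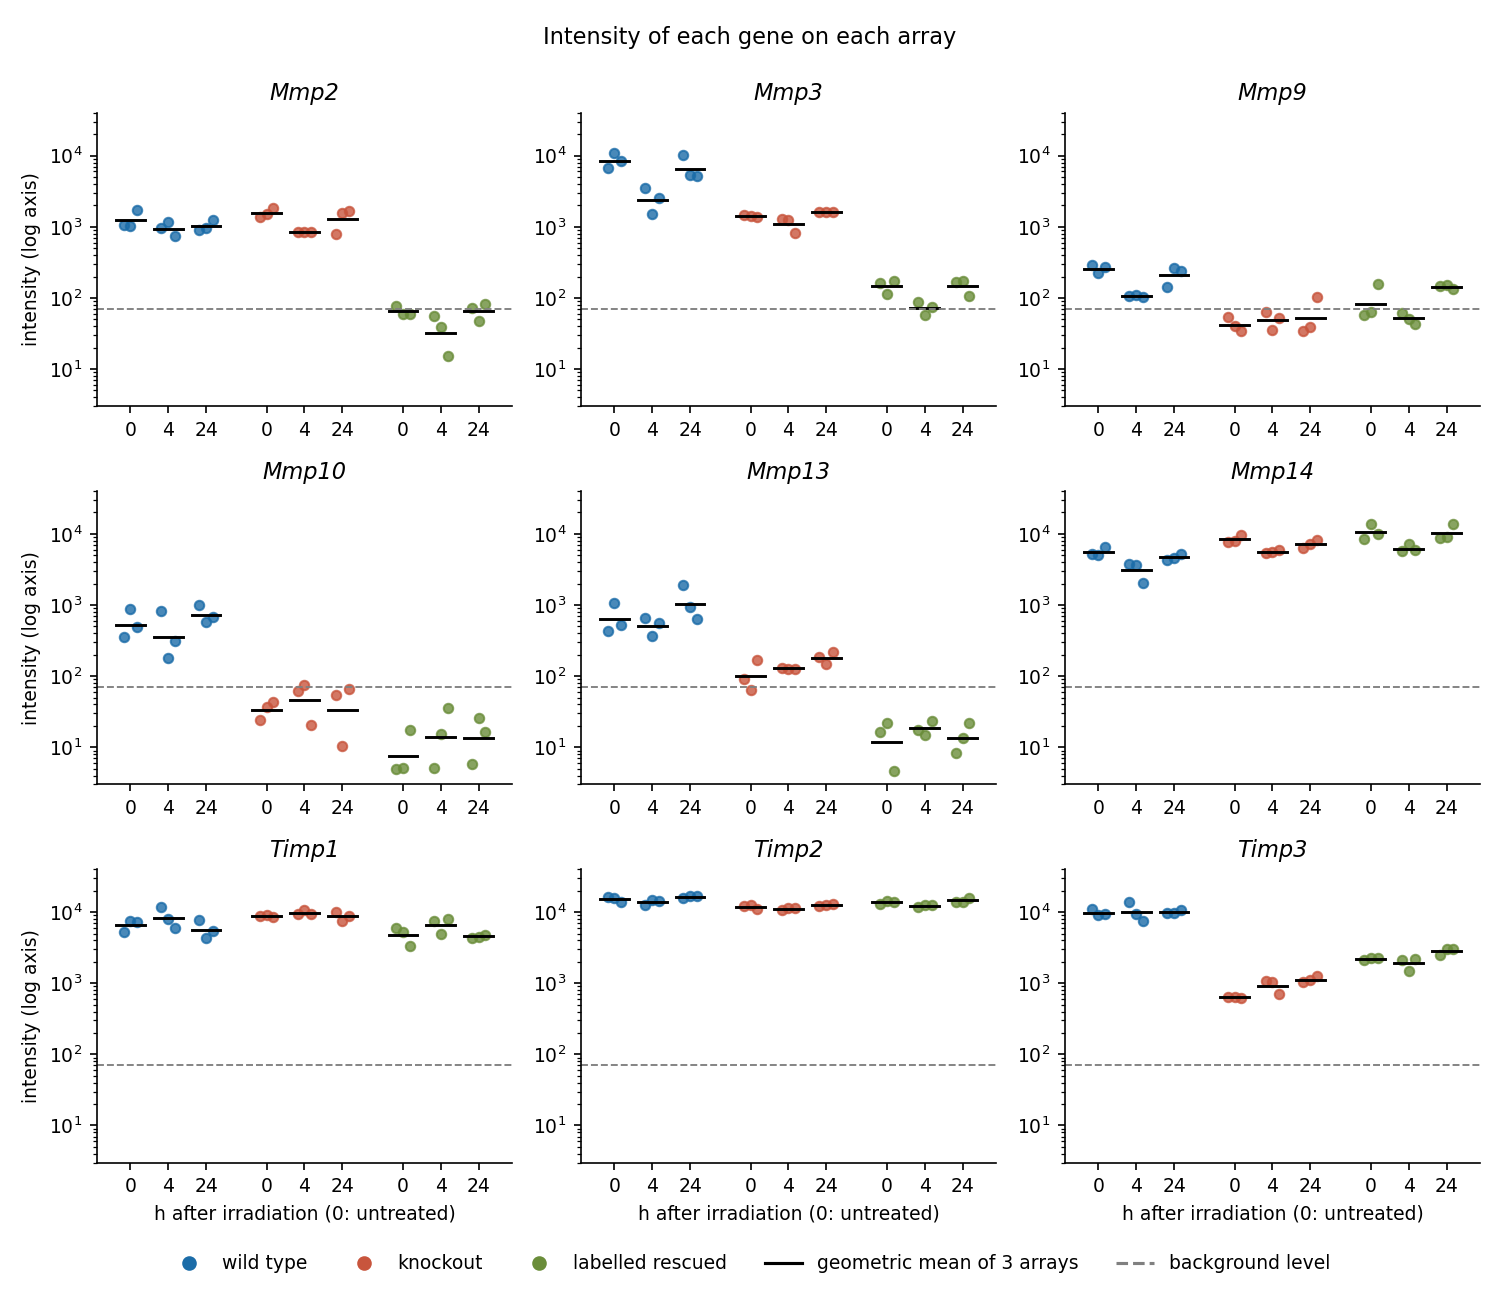
Intensity (log axis) of the brightest probe set of each gene on each of the 27 arrays, by line and by hours after irradiation, with 0 for untreated cells. Points are arrays, black bars are geometric means of 3 arrays and the dashed line is the background level of 69.9. Mmp3 and Mmp13 step down from wild type to knockout to the line labelled rescued, Mmp10 is below background in both other lines, Mmp2 is low in the line labelled rescued, and Timp3 is lowest in the knockout.

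The promoters of these 3 genes are shown because the genes lie together and differ together between the lines. Each run is the 250 bases before the start of the gene in RefSeq (GRCm38.p6), 5′ to 3′ in the direction of the gene, with the match to the AP-1 motif TGANTCA in capitals.
Mmp3 (chr9:7445572-7445821, plus strand): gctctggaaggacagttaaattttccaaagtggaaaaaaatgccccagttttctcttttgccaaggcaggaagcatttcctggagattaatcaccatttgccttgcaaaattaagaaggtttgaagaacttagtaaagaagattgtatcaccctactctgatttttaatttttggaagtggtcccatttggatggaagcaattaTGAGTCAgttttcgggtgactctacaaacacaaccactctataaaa
Mmp10 (chr9:7502092-7502341, plus strand): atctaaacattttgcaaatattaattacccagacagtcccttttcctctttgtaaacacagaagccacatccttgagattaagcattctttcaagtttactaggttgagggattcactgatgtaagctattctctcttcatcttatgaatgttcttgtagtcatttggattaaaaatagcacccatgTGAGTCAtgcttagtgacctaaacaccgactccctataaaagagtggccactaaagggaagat
Mmp13 (chr9:7272264-7272513, plus strand): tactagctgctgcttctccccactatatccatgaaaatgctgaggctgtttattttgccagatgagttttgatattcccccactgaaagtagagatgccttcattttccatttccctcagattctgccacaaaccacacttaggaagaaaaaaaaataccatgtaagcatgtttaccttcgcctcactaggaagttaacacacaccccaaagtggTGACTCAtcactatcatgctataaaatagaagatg
The motif was searched on both strands and its first base lies 46 bases before the start in Mmp3, 63 in Mmp10 and 35 in Mmp13. It occurs in 6.87% of the 27025 promoters of the same length. In the same windows of Mmp14, Timp1, Timp2 and Timp3 these letters were not found. The letters TATAAA, searched on the sense strand, occur in Mmp3, Mmp10 and Mmp13, starting 7, 29 and 16 bases before the start, and in 8.12% of all promoters. AGGAAG, the core of the PEA3 motif that ETS factors bind, occurs on either strand in 29.2% of all promoters and in those of Mmp3, Mmp13, Mmp14, Timp1 and Timp3. None of the matches overlapped another. Promoters were found for 7 of the 9 genes, all but Mmp2 and Mmp9.

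The cluster holds 10 Mmp genes in the order Mmp13, Mmp12, Mmp1b, Mmp3, Mmp1a, Mmp10, Mmp8, Mmp27, Mmp20 and Mmp7, of which 9 were measured and 4 reached background in at least 1 group. The neighbours were looked up after the values of the 3 members had been seen. The fourth expressed gene, Mmp8, encodes neutrophil collagenase. Its wild-type arrays read 463, 1330 and 606 untreated, those of the knockout 2.16, 26.5 and 6.98, and those of the line labelled rescued 6.69, 22.5 and 1.42. Against wild type the knockout was lower by at least 10.3-fold (-6.61 ± 1.03, adjusted p = 9.1e-05), and so was the line labelled rescued (-6.91 ± 1.03, adjusted p = 5.2e-05). Its promoter holds no TGANTCA, and neither do those of Mmp12 and Mmp27, while those of Mmp1b, Mmp1a, Mmp20 and Mmp7 each hold 1. Of 8 measured coding genes flanking the cluster, 4 on each side, limma called 1, in both lines. Of all genes 17.6% were called in the knockout and 18.8% in the line labelled rescued. This was Tmem123, the nearest on the Mmp7 side, which was higher by 0.74 in the knockout (adjusted p = 0.029) and by 0.69 in the line labelled rescued (adjusted p = 0.039). The other 7 had adjusted p values from 0.071 to 0.98, with Pdgfd at -2.89 and -1.03 (adjusted p = 0.13 and 0.67) and Dcun1d5, the nearest on the Mmp13 side, at 0.28 and 0.17 (adjusted p = 0.11 and 0.37). Ddi1 was below background in every group and Pdgfd in untreated cells of every line (41.5, 5.59 and 20.3). A fall from the wild-type level could hardly be seen in these 2 genes.

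**Figure D2:**
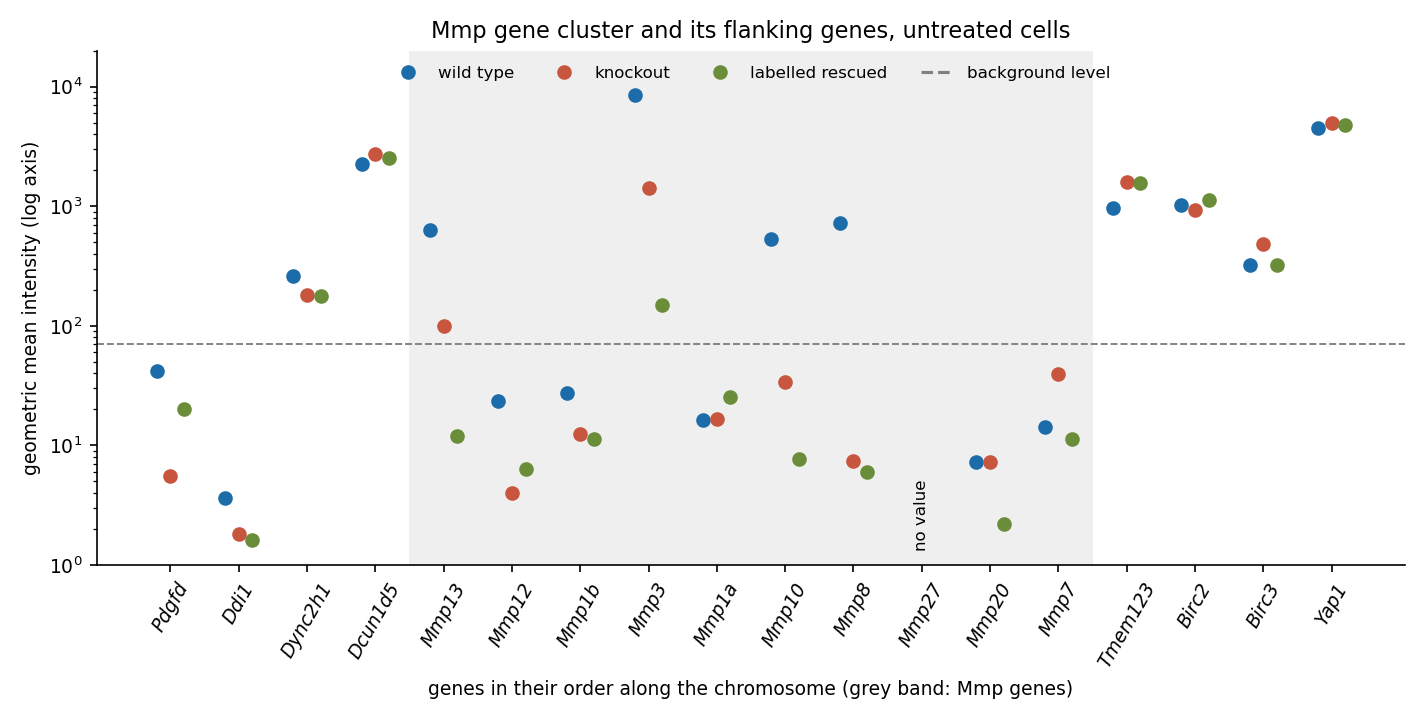
Geometric mean intensity (log axis) in untreated cells of each line for the Mmp genes of the chromosome 9 cluster (grey band) and 4 coding genes on each side, in their order along the chromosome with equal spacing. Mmp13, Mmp3, Mmp10 and Mmp8 are above the dashed background level of 69.9 in wild-type cells and lower in both other lines. Mmp27 had no value.

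Among arrays of the same wild-type group, the 4 expressed genes of the cluster had the same highest array in untreated cells and at 24 h, and not at 4 h. In untreated cells replicate 1 was the highest for Mmp3 (10900), Mmp10 (886), Mmp13 (1080) and Mmp8 (1330). At 24 h replicate 0 was the highest, with 10300, 991, 1930 and 1480. At 4 h replicate 0 was the highest for Mmp3 (3550), Mmp10 (814) and Mmp13 (658), and the lowest for Mmp8 (255, against 275 and 343). Of these arrays, replicate 0 at 4 h is among the 5 that the actin and Gapdh ratios set apart. What moved with them was not tested.

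The gelatinases Mmp2 and Mmp9 cut denatured collagen and type IV collagen, the main collagen of basement membranes, and they differed between the lines in other ways. Mmp2 read 1070, 1030 and 1740 on untreated wild-type arrays and 1370, 1500 and 1840 on those of the knockout, which overlap. The line labelled rescued gave 77.1, 59.1 and 59.3, and 6 of its 9 arrays over all times were below background. Its untreated level of 64.7, below the background of 69.9 but above the alternative of 48.3, was at least 17.7-fold below that of wild type (-4.26 ± 0.37, adjusted p = 4.5e-08). Below the knockout it was at least 22.3-fold (-4.59 ± 0.37, adjusted p = 8.7e-07). The knockout and wild type differed by 0.33 ± 0.37, with a 95% interval from -0.44 to 1.10 (adjusted p = 0.63). A second Mmp2 probe set, 1439364_a_at, gave 1170, 1540 and 77.8 in the wild-type, knockout and labelled rescued lines, in the same order.

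Mmp9 was dimmer, with 291, 221 and 270 on untreated arrays of wild type, 53.1, 39.8 and 33.9 on those of the knockout, and 57.3, 63.4 and 159 on those of the line labelled rescued. Wild-type arrays lay above all arrays of both other lines, and 1 array of the line labelled rescued stood well above its other 2. The knockout was at least 3.7-fold lower than wild type (-2.64 ± 0.38, adjusted p = 3.8e-05). In the line labelled rescued the level was 3.11-fold lower than wild type (-1.64 ± 0.38, adjusted p = 0.0039), and this call was lost without the 5 arrays set apart (-1.41, adjusted p = 0.067) and on the compared arrays alone (adjusted p = 0.11). A second probe set, 1448291_at, also fell in the knockout (-4.36 ± 0.74, adjusted p = 3e-04) and did not pass in the line labelled rescued (-1.43 ± 0.74, adjusted p = 0.24). On that probe set the levels of the line labelled rescued and the knockout were both below background.

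Mmp14 encodes MT1-MMP, which sits in the cell membrane, cuts collagen and activates the Mmp2 proenzyme together with the Timp2 protein. It was the 1 protease of the 6 with higher values in both other lines than in wild-type cells on every array. Untreated wild-type cells gave 5240, 5030 and 6620, the knockout 7650, 7910 and 9740, and the line labelled rescued 8370, 14000 and 9900. The difference passed in the line labelled rescued (1.88-fold, 0.91 ± 0.23, adjusted p = 0.0076), though not on the compared arrays alone (adjusted p = 0.13), and missed in the knockout (0.59 ± 0.23, 95% interval 0.10 to 1.07, adjusted p = 0.093). Of its 3 probe sets, 1416572_at called both differences when each probe set was tested by itself (knockout 0.67 ± 0.17, adjusted p = 0.01; line labelled rescued 1.08 ± 0.17, adjusted p = 0.00014). The third, 1440920_at, gave 0.66 ± 0.36 and 1.04 ± 0.36 without passing.

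Among the inhibitors, Timp3 differed the most. Its protein binds the matrix around the cell and also inhibits proteases of the ADAM and ADAMTS families. Wild-type cells read 11200, 9060 and 9350 before irradiation, knockout cells 634, 648 and 629, and cells of the line labelled rescued 2100, 2260 and 2250. No array of a line came near those of another. The knockout was 15.4-fold lower than wild type (-3.95 ± 0.20, adjusted p = 4.1e-11). In the line labelled rescued the level was 4.47-fold lower than wild type (-2.16 ± 0.20, adjusted p = 9.4e-08) and 3.46-fold higher than in the knockout (1.79 ± 0.20, adjusted p = 2.4e-05). Timp3 was the 1 member called higher in the line labelled rescued than in the knockout, and this call was narrowly lost on the compared arrays alone (adjusted p = 0.051). All 4 Timp3 probe sets were called lower in both lines, by -3.44 to -4.40 in the knockout and by -2.16 to -2.60 in the line labelled rescued.

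Timp1 and Timp2 varied little. Timp1, a secreted inhibitor that growth factors and cytokines induce, read 5320, 7470 and 7190 in wild-type cells without irradiation. The knockout gave 8720, 9080 and 8410, and the line labelled rescued 5960, 5280 and 3350. None of its line differences passed: 0.41 ± 0.26 for knockout against wild type, -0.48 ± 0.26 for the line labelled rescued against wild type, and -0.89 ± 0.26 between the 2 (adjusted p = 0.062, 95% interval -1.42 to -0.35), where the arrays did not overlap. Timp2 had 16200, 15700 and 13900 on the wild-type arrays, 12200, 12400 and 11200 on those of the knockout and 13100, 14300 and 14100 on those of the line labelled rescued, all untreated. The knockout was 1.28-fold lower than wild type (-0.35 ± 0.10, adjusted p = 0.016), the smallest difference called. Timp2 has 6 probe sets, which disagreed: 1437081_at was below background throughout, 4 others gave lower values in the knockout (-0.35 to -0.77), and 1450040_at gave 2470 against 1990 in wild type (0.31 ± 0.28, adjusted p = 0.57). When the probe sets were averaged, the Timp2 difference did not pass (adjusted p = 0.62), nor did it without the first or second wild-type array or the third knockout array.

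**Figure D3:**
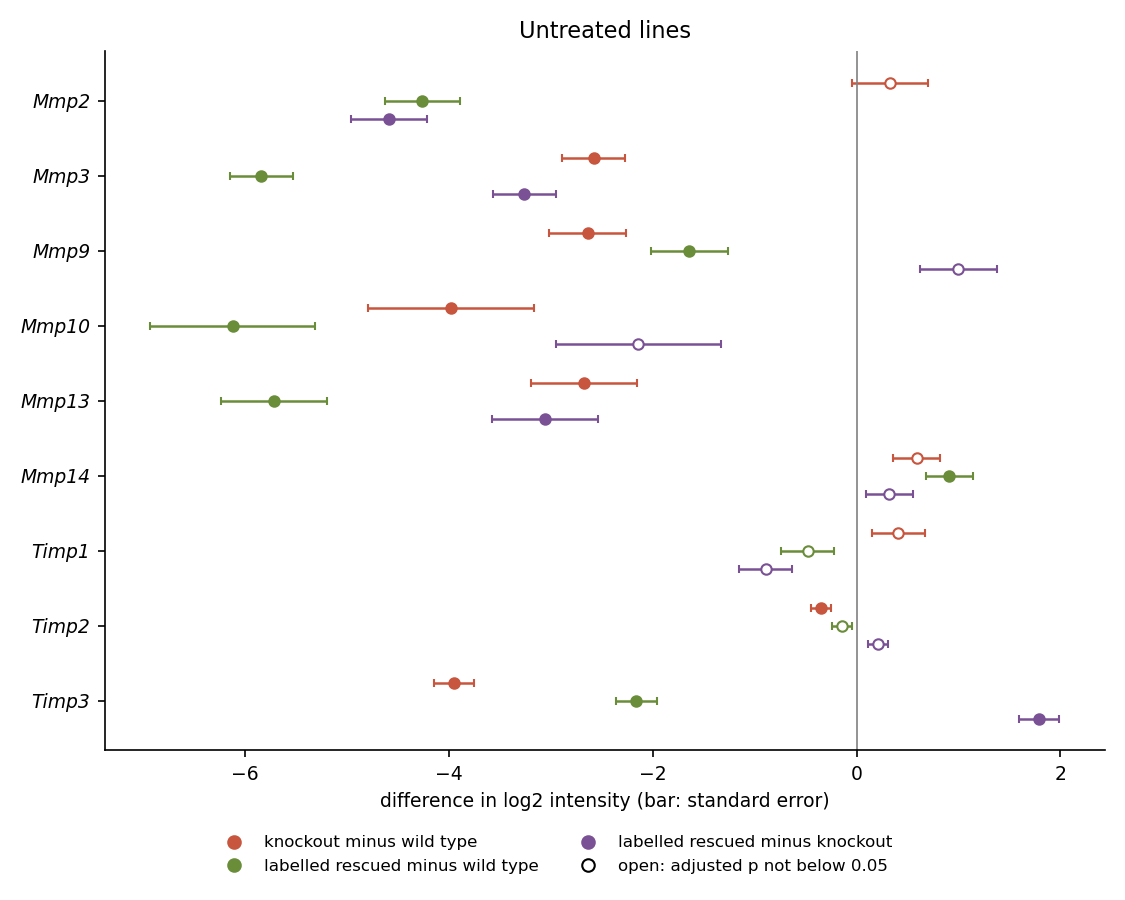
Difference in log2 intensity between untreated lines for each gene, for the knockout against wild type, the line labelled rescued against wild type, and the line labelled rescued against the knockout. Points are model estimates, bars are standard errors and filled points passed an adjusted p of 0.05. In the knockout 6 of 9 genes are filled, all to the left of 0, and in the line labelled rescued against wild type 7 are filled, with Mmp14 to the right.

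In all, 6 of the 9 genes were called in the knockout against wild type, each lower, where 17.6% of all genes were called. For the line labelled rescued against wild type 7 were called, 6 lower and 1 higher, where 18.8% of all genes were called. The 2 comparisons share the wild-type arrays. Between the line labelled rescued and the knockout 4 were called, 3 lower and 1 higher, against 3.79% of all genes. All genes include many dim ones. Among the 9096 genes above the median level, 2634, 2845 and 795 were called in these comparisons. The members had 12 calls in that fit, in which dim genes were not tested. The median difference of the 9 was -2.58, -2.16 and -0.89 in these comparisons, and that of all genes -0.00, 0.06 and 0.05. Without the 5 arrays set apart 16 of the 17 calls remained.

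**Figure D4:**
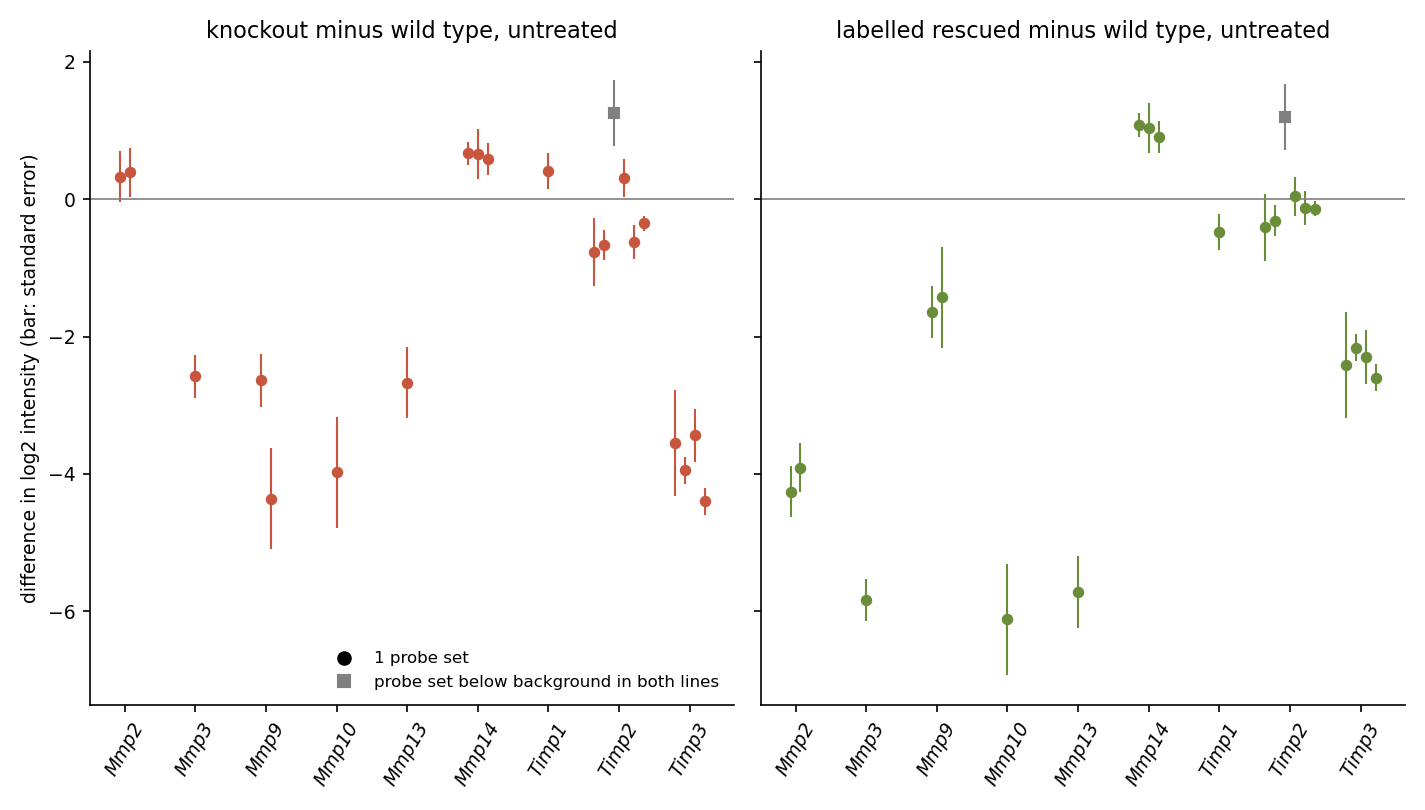
Difference in log2 intensity against untreated wild-type cells for each of the 21 probe sets, grouped by gene, in the knockout (left) and in the line labelled rescued (right). Points are single probe sets, bars are standard errors, and the grey square is the Timp2 probe set below background in both lines. The 4 Timp3 probe sets lie together below -2 in both panels, and those of Timp2 fall on both sides of 0 in the knockout.

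Markers of other cell types also differed between the lines, and their part in the differences above was not tested. In both other lines the macrophage, endothelial and epithelial sums were below those of wild type, and the skeletal sum was above. Of 8 macrophage markers 3 were above background in wild type without irradiation, against 2 in the knockout and 3 in the line labelled rescued, and their summed intensity ran from 1160 to 1780, 567 to 717 and 391 to 556. The largest part of it was Cd14, at 1060, 339 and 143, which fibroblasts can also express. Csf1r was above background in every group, at 141, 115 and 98.8 untreated, Cd68 was called lower in both lines (91.3, 47.6 and 41.9), and Lyz2 reached 76.4 in the line labelled rescued. Ptprc, Itgam, Tyrobp and Adgre1 were below background in every group. Of 7 endothelial markers 1 (Kdr) was above background in untreated wild-type cells and 0 in the other lines, with sums of 279 to 456, 65.8 to 113 and 106 to 155, and the other 6, Pecam1 and Cdh5 among them, were below background in every group. Of 8 epithelial markers 3, 2 and 2 were above background in the 3 untreated lines, with sums of 753 to 1380, 171 to 293 and 286 to 350. Krt14, the largest part of the wild-type sum, read 720, 7.5 and 5.47. Krt8 read 76.5, 14.4 and 41.3, Epcam 80.6, 84.4 and 92.4, and Krt19 54.6, 77.6 and 91.1, while Cdh1 was below background in every group. Of 10 skeletal markers 8 were measured and 1, 1 and 3 were above background, with sums of 366 to 663, 909 to 1190 and 1150 to 1390. Sox9, the largest part of the sum in each line, was called higher in both other lines (326, 848 and 1060). Phex was called higher in the line labelled rescued (25.7, 37.9 and 84.1), and Sp7 read 54.2, 44.1 and 72.3. The other 5, Ibsp, Dmp1, Acan, Col2a1 and Col10a1, were below background in every group.

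After irradiation the clearest change was in Mmp3 of the wild-type line, which fell at 4 h and rose again by 24 h. Its arrays went from 6710, 10900 and 8380 untreated to 3550, 1530 and 2550 at 4 h and 10300, 5270 and 5210 at 24 h. All 4 h arrays lay below all others of the line. The fall was 3.53-fold (-1.82 ± 0.31, adjusted p = 0.0048) and the later rise 2.73-fold (1.45 ± 0.31, adjusted p = 0.017). Fitted on the compared arrays alone neither passed (adjusted p = 0.33 and 0.28), a fit in which 0 genes of the whole table passed against untreated cells and 1 passed between 24 h and 4 h. The rise was also lost without the second 4 h array or the first 24 h array of this line. At 24 h Mmp3 differed from untreated cells by -0.37 ± 0.31. At 4 h, where 3.25% of all genes were called, 2 of 10 fibroblast markers were also called lower in this line. These were Thy1 (-1.57, adjusted p = 0.0025) and Fap (-1.22, adjusted p = 0.0052), and their part in the Mmp3 result was not tested. At 4 h 1 of the 10 was called lower in the line labelled rescued, Fap (-1.20, adjusted p = 0.016), and 0 in the knockout. Of all genes 0.978% and 0.368% were called there.

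Mmp3 was also lower at 4 h in the line labelled rescued, from 164, 114 and 174 to 86.4, 57.2 and 74.5, without overlap (-1.05 ± 0.31, adjusted p = 0.1). It returned to 169, 175 and 107 at 24 h (1.04 ± 0.31 above 4 h, adjusted p = 0.095). In the knockout it went from 1480, 1400 and 1370 to 1290, 1250 and 818 (-0.37 ± 0.31, adjusted p = 0.66) and to 1620, 1610 and 1590. The difference of the 4 h response between knockout and wild type was 1.45 ± 0.44, with a 95% interval from 0.54 to 2.36, and did not pass over all genes (adjusted p = 0.55).

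Mmp14 had lower values at 4 h in all 3 lines, each time with no overlap with untreated arrays. The wild-type arrays gave 3820, 3710 and 2020 after 5240, 5030 and 6620 (-0.87 ± 0.23, adjusted p = 0.044). Those of the knockout gave 5440, 5480 and 5960 after 7650, 7910 and 9740 (-0.58 ± 0.23, adjusted p = 0.28), and those of the line labelled rescued 5780, 7120 and 5870 after 8370, 14000 and 9900 (-0.75 ± 0.23, adjusted p = 0.12). Only the wild-type fall passed, close to the threshold, and it held in 14 of 37 alternative fits. Probe set 1416572_at, tested by itself, passed for the fall (-0.84 ± 0.17, adjusted p = 0.019) and for the rise to 24 h (0.84 ± 0.17, adjusted p = 0.021) in the wild-type line. The differences between lines in the 4 h response of Mmp14 were 0.29, 0.12 and -0.18, each ± 0.33.

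Mmp9 had lower values in wild-type cells at 4 h, with 106, 110 and 104 after 291, 221 and 270, below every untreated array (-1.28 ± 0.38, adjusted p = 0.07). At 24 h it gave 143, 264 and 237. In the line labelled rescued it went from 61.2, 51.3 and 43.6 at 4 h to 145, 154 and 134 at 24 h, at least 2.06-fold without overlap (1.48 ± 0.38, adjusted p = 0.056), and its other probe set, below background at 4 h, passed for a rise of at least 1.6-fold when tested by itself (adjusted p = 0.047). Mmp2 was lower at 4 h in the knockout, with 846, 848 and 832 after 1370, 1500 and 1840 (-0.89 ± 0.37, adjusted p = 0.3), and differed by -0.41 ± 0.37 in wild-type cells. In the line labelled rescued it differed by -1.01 ± 0.37 (adjusted p = 0.18), with both levels below background. The levels there were 64.7 untreated, 32.2 at 4 h and 65.1 at 24 h. Probe set 1439364_a_at gave 77.8, 38.3 and 72.6, below background at 4 h only. Mmp10 and Mmp13 had no change that passed, with standard errors of 0.81 and 0.52, and in wild-type cells at 24 h Mmp13 gave 1930, 944 and 635 after 434, 1080 and 531 (0.74 ± 0.52).

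The inhibitors had no change that passed after irradiation. Timp3 of the knockout went from 634, 648 and 629 to 1070, 1040 and 713 at 4 h and 1030, 1100 and 1260 at 24 h, above every untreated array both times (0.54 ± 0.20, adjusted p = 0.23, and 0.82 ± 0.20, adjusted p = 0.38). In wild-type cells it differed by 0.01 ± 0.20 and 0.02 ± 0.20. The difference of the 24 h response between these lines had a 95% interval from 0.22 to 1.38 and did not pass over all genes (adjusted p = 1). Timp1 differed by 0.33 ± 0.26 in wild-type cells, 0.16 ± 0.26 in the knockout and 0.49 ± 0.26 in the line labelled rescued at 4 h, and Timp2 by -0.14, -0.09 and -0.16, each ± 0.10.

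**Figure D5:**
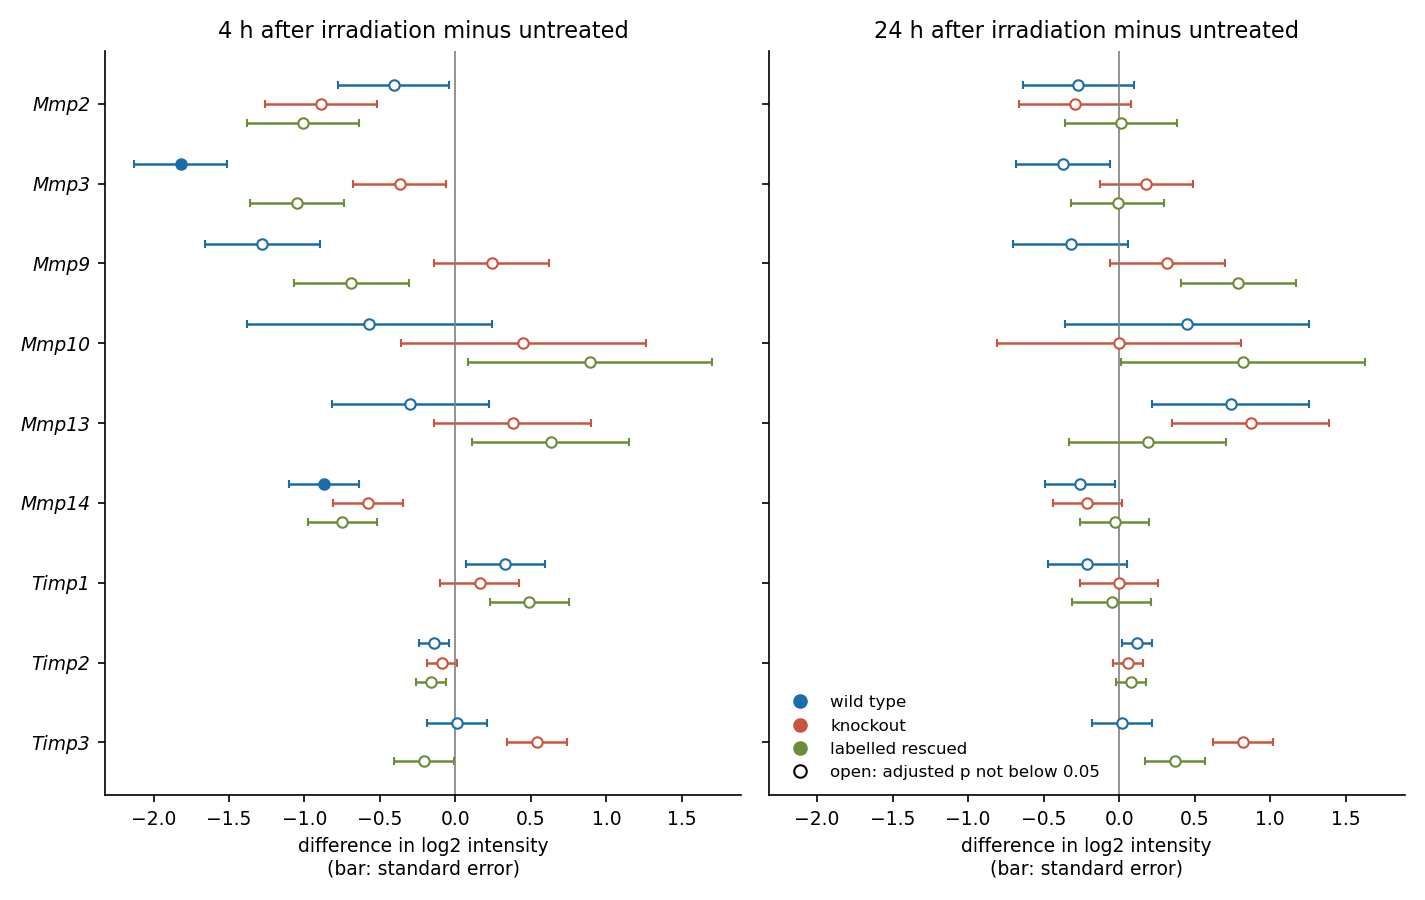
Difference in log2 intensity from untreated cells of the same line, 4 h (left) and 24 h (right) after irradiation, for each gene and line. Points are model estimates, bars are standard errors and filled points passed an adjusted p of 0.05. Mmp3 and Mmp14 of the wild-type line are filled at 4 h, no point is filled at 24 h, and Mmp14 lies to the left of 0 in all 3 lines at 4 h.

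By limma 2 of 9 genes passed at 4 h in the wild-type line, both lower, where 3.25% of all genes passed. At an unadjusted p below 0.05 there were 3 members, and 3085 of all 18193 genes. At the same time 0 of 9 passed in the knockout (0.368% of all genes) and 0 of 9 in the line labelled rescued (0.978% of all genes). By unadjusted p, 3 members and 2358 of all genes were below 0.05 in the knockout. In the line labelled rescued these were 3 members and 2677 genes. At 24 h 0 of 9 passed by limma in any line, where 0.0495%, 0% and 0% of all genes passed in the wild-type, knockout and labelled rescued lines. In the same order, 0, 1 and 0 members and 1745, 1064 and 830 of all genes had an unadjusted p below 0.05. Between 24 h and 4 h 1 of 9 passed in the wild-type line (2.6% of all genes). It was 0 of 9 in the knockout (0.0055% of all genes) and 0 of 9 in the line labelled rescued (1.57% of all genes). For these 3 lines 5, 0 and 7 members and 2826, 1495 and 2837 of all genes had an unadjusted p below 0.05. The tests of the difference in response between lines by limma called 0 of 9 members in each of 6 comparisons. At 4 h they called 0.011% of all genes for knockout against wild type, 0.0165% for the line labelled rescued against wild type and 0% for the line labelled rescued against the knockout. There 2, 0 and 1 members, and 998, 1083 and 537 of all genes, had an unadjusted p below 0.05. At 24 h each of the 3 comparisons called 0.0055% of all genes. There 1, 0 and 0 members, and 625, 683 and 544 of all genes, had an unadjusted p below 0.05. So a change that passed in 1 line is not shown to differ from the other lines. Without the 5 arrays set apart Mmp3 and Mmp14 still passed at 4 h in the wild-type line (adjusted p = 0.0093 and 0.047), and between 24 h and 4 h Mmp14 passed beside Mmp3 (0.77, adjusted p = 0.047).

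Across the 9 groups the SD of the group means was 2.47 for Mmp3, 2.47 for Mmp10, 2.46 for Mmp13, 2.26 for Mmp2 and 1.55 for Timp3, against SDs between replicates of 0.38, 1.03, 0.66, 0.46 and 0.23. It was 0.97 for Mmp9, 0.57 for Mmp14, 0.40 for Timp1 and 0.18 for Timp2, with replicate SDs of 0.48, 0.28, 0.31 and 0.09. Ordered by level, the 3 wild-type groups came first for Mmp3, Mmp10, Mmp13 and Timp3, and the 3 groups of the line labelled rescued came last for Mmp2, Mmp3 and Mmp13. All 6 Mmp10 groups of both other lines were below background and have no order. For Timp3 the lowest 3 were those of the knockout, between 637 and 1120. Neighbouring wild-type groups did not separate for Mmp10, Mmp13 and Timp3. For Mmp14 the order ran from 10500 in untreated cells of the line labelled rescued to 3060 in wild-type cells at 4 h, with a gap between neighbours only before the last. No neighbours in the Timp1 order separated.

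Over the 9 group means Pearson's correlation was 0.96 between Mmp3 and Mmp13, 0.95 between Mmp10 and Mmp13 and 0.92 between Mmp2 and Mmp3, and -0.79 between Mmp10 and Mmp14. These 9 points share 3 lines, so they describe the line pattern above, and levels below background entered as deposited. Among 2794 genes above background in some group and varying over the groups, the pattern closest to Mmp3 was that of Slc1a6 (0.990), to Mmp13 Ch25h (0.995), to Mmp10 Sema3e (0.992), to Mmp9 Ctsh (0.979), to Mmp14 Cbr2 (0.994), to Timp1 S100a8 (0.954), to Timp2 Ppp1r3b (0.991) and to Timp3 Nipsnap1 (0.995). For Mmp2 they were Ptprz1 and Col4a2, both at 0.979. Col4a2 encodes a chain of type IV collagen.

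Of 18 other Mmp and Timp genes 13 were measured and 7 reached background in some group. In the knockout 2 were called higher and 2 lower than wild type, with a median difference of 0.01. Mmp16, another membrane-bound protease, rose from 301 to 476 (0.66 ± 0.21, adjusted p = 0.029). The others, named after their values were seen, were Mmp23 (383 against 20.9, at least 5.49-fold higher), Mmp17 (at least 2.95-fold lower) and Mmp8. In the line labelled rescued Mmp23 was called higher (at least 4.28-fold) and Mmp17 and Mmp8 lower. Of all genes, 17.6% were called in the knockout and 18.8% in the line labelled rescued, each against wild type. Of 24 measured genes of the ADAM and ADAMTS families, of which Timp3 inhibits some members, 6 were higher and 3 lower in the knockout. In the line labelled rescued 6 were higher and 6 lower. Adamts1, which cuts aggrecan and versican, rose 7.68-fold in the knockout (8150 against 1060, adjusted p = 2.8e-07) and 8.72-fold in the line labelled rescued. Adamts4 and Adamts12 rose 2.93-fold and 2.97-fold in the knockout and 2.81-fold and 2.98-fold in the line labelled rescued. Adamts7 fell at 4 h by 1.87-fold in the knockout (adjusted p = 0.049) and by 2.45-fold in the line labelled rescued (adjusted p = 0.0063). Of all genes 0.368% and 0.978% were called there. In wild-type cells Adamts7 went from 835 to 515 at 4 h, without passing.

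Of 24 measured activators, receptors and other regulators of these proteases, 6 were higher and 4 lower in the knockout, and 5 higher and 6 lower in the line labelled rescued. In these comparisons 17.6% and 18.8% of all genes were called. Pcsk6, a proprotein convertase, fell 4-fold and 3.93-fold in these lines. Thbs1, a matrix glycoprotein that binds several Mmp proteins, rose 2.41-fold and 2.44-fold. The serine protease Fap fell 2.7-fold in the knockout (227 against 612) and read 605 in the line labelled rescued. At 4 h 2 of the 24 were lower in wild-type cells, Fap (2.33-fold, adjusted p = 0.0052) and Thbs2 (2.65-fold, adjusted p = 0.0033), and both rose by 24 h (1.76-fold, adjusted p = 0.045, and 2.14-fold, adjusted p = 0.014). Of all genes 3.25% were called at 4 h in this line, and 2.6% between 24 h and 4 h. In the line labelled rescued Fap went from 605 to 263 at 4 h (2.3-fold, adjusted p = 0.016). It rose 2.78-fold by 24 h there (adjusted p = 0.0021), where 0.978% and 1.57% of all genes were called in these 2 comparisons. In the knockout Fap went from 227 to 116 at 4 h and 237 at 24 h, without passing. Of 29 measured factors and cytokines known to act on Mmp transcription, 9 were higher and 3 lower in the knockout, and 4 higher and 5 lower in the line labelled rescued. Of all genes 17.6% and 18.8% were called there. Runx1, a transcription factor that acts on the Mmp13 promoter, rose 6.34-fold in the knockout (959 against 151) and 2.83-fold in the line labelled rescued. The cytokine gene Il6 rose 4.52-fold in the knockout (adjusted p = 0.029), and Tgfb3 fell 4-fold there and 2.39-fold in the line labelled rescued. Etv5, an ETS factor of the PEA3 group, fell 2.92-fold in the knockout and 5.3-fold in the line labelled rescued. Among the AP-1 genes Jun rose at 4 h by 2.09-fold in the knockout (adjusted p = 0.034) and by 1.85-fold in the line labelled rescued (adjusted p = 0.042), and Fosl1 in the latter (3.88-fold, adjusted p = 0.029). Fosl1 also went from 871 to 2380 in wild-type cells and from 847 to 2060 in the knockout, without passing. Jun went from 1530 to 1930 in wild-type cells. In wild-type cells at 4 h 0 of the 29 were called higher and 1 lower. For a difference in response between lines 0 of the 29 were called.

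Of 20 matrix genes whose products these proteases cut, 3 were higher and 4 lower in the knockout, and 3 higher and 8 lower in the line labelled rescued. In these comparisons 17.6% and 18.8% of all genes were called, and 3.79% between the line labelled rescued and the knockout. Vcan and Tnc, for versican and tenascin-C, rose 7.37-fold and 6.23-fold in the knockout and 4.44-fold and 5.09-fold in the line labelled rescued. Dcn, for the small proteoglycan decorin, fell from 14600 in wild-type cells to 4420 and 1210 (adjusted p = 1e-04 and 8.5e-09). It also fell 2.11-fold at 4 h in wild-type cells (adjusted p = 0.034) and rose 2.18-fold by 24 h (adjusted p = 0.033). In the knockout Dcn read 4420 untreated, 2320 at 4 h and 4050 at 24 h. In the line labelled rescued it read 1210, 620 and 1570. The 4 h fall passed in neither of these 2 lines. Between the line labelled rescued and the knockout 3 were lower and 0 higher: Dcn (3.67-fold), Col4a1 (4.88-fold, adjusted p = 0.0026) and Col4a2 (4.49-fold, adjusted p = 0.0014), the pair of type IV collagen chains that Mmp2 and Mmp9 cut.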

How the data were processed

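The deposited table holds linear intensity values of 45101 probe sets on 27 arrays, which the authors scaled so that the mean after trimming 2% at each end was 500.003 on every array. RMA and GCRMA are named without versions per the submitters' processing notes, but the values reach from 0.00523 to 45330 and array medians from 54.4 to 80, which is the form of neither, so the summary method is not known. Intensities have no counting depth, and the number of arrays limits the precision. Between 10003 and 10850 genes per array lay above background.

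Values were taken to log2 with no further normalization. After 64 control probe sets, 34945 carried 1 symbol in the platform annotation, 932 several and 9160 none, and 34741 matched RefSeq. Each gene was its brightest probe set over all arrays (9010 of 18193 genes had several). Tests used limma 3.58.1 in R 4.3.3, with 9 group means, 18 residual and 1.39 prior degrees of freedom, 18 contrasts and two-sided Benjamini-Hochberg adjusted p values within each contrast over all genes, with a threshold of 0.05. Before use the fit was run on simulated data with known changes in the knockout comparison. The simulated noise was independent between arrays, so that run does not measure the error rate on the real arrays. Exact tests of 3 against 3 arrays cannot go below 0.1 and were not used.

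Whether the replicate numbers of the titles pair the arrays is not settled. Over 108 pairs that share a number, deviations from group means over 9096 genes correlated from -0.79 to 0.83 (median 0.03), and 14 of 27 arrays were closest to their own number. The replicate block was therefore an alternative only, beside those given in the closing section. With it all genes had 1011 calls for irradiated against untreated cells, against 846 without it. The genes, gene lists and alternatives were chosen with earlier results of these data known. Named from each context list were up to 3 genes past the threshold with the largest change and both groups above background, and the closest patterns were taken by Pearson's correlation over group means. Promoter sequences are from RefSeq (GRCm38.p6).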

Additional observations from a re-analysis of the deposited data

How the results depend on the processing

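Of 162 results (9 genes in 18 comparisons) 20 were called, 12 of them in every alternative fit that could be made, and 8 were lost in at least 1. Of the 142 not called 131 passed in no alternative. No called value changed sign, and changes of sign among values that never passed were not counted. Dim genes limit most: Mmp10 had a replicate SD of 1.03.

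A call here is 1 gene in 1 comparison, so counts add up over comparisons. Irradiated against untreated cells had 2 calls. The count was 0 on the compared arrays only, 4 with genes above the median level only (7.26 on the log2 scale), 1 with the mean of all probe sets, 1 with each probe set by itself, and 3 with log2 of the value plus 32. It ran from 1 to 3 when single arrays were left out. All genes together had 846 calls in the fit used above. In the alternatives just listed they had 0, 2108, 338, 674 and 1258, in the same order. Between 24 h and 4 h there was 1, against 0 on the compared arrays only, 3 with genes above the median level, and 2 each with an intensity trend, with quantile normalization, with an offset of 32, with probe sets averaged, and on the 22 arrays left after setting aside the 5 that Gapdh sets apart (an alternative chosen after seeing the data). It ran from 0 to 2 with single arrays left out. All genes together had 760 calls between 24 h and 4 h in the fit used above. In the alternatives just listed they had 1, 1578, 1125, 697, 1163, 331 and 1003, in the same order. Between untreated lines there were 17 calls over 3 comparisons, which ran from 16 to 19 with single arrays left out, 12 on the compared arrays only and 12 with genes above the median level, where dim genes were not tested. All genes had 7310 calls between untreated lines, 2401 on the compared arrays only and 6274 with genes above the median level. For differences in response the members had 0 calls throughout, and all genes had 8 in the fit used above.

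The replicate block changed 0 calls, with 2, 1, 17 and 0 calls in these 4 groups of comparisons. Equal array medians moved the median of all genes by up to 0.22. The Mmp14 fall at 4 h in wild-type cells passed in 14 of 37 alternatives, and Timp2 in the knockout was lost in 6, among them equal array medians and leaving out either of 2 wild-type arrays or 1 knockout array. On the compared arrays only, calls were also lost for both Mmp3 changes in wild-type cells, Mmp13 and Timp3 between the line labelled rescued and the knockout, and Mmp9 and Mmp14 between that line and wild type. The cause of these losses was not tested.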
